A study of Rattus norvegicus with 9 samples.

Results

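The cytosolic ribosomal protein genes encode the proteins of the ribosome that translates nuclear messages, and they were followed here in cultured rat heart cells. Members were the genes whose symbol is Rpl or Rps with a number and, where present, an ending of a, l, x or a digit, plus Rplp0, Rplp1, Rplp2 and Rpsa. The rule used names and no measured value. It found 82 genes among the 14607 listed in any library: 31 of the small subunit, 46 of the large subunit and 5 paralogs (Rpl22l1, Rpl36al, Rpl39l, Rpl3l and Rps27l). Of the 82, 81 were listed in all 9 libraries, and 81 passed the filter on low counts and were tested among 11761 genes. Rpl3l was set aside.

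The cells were primary cardiomyocytes of wild-type SD rats, taken 1 to 2 days after birth. They were infected for 16 h with 1 of 3 lentiviruses and then kept in serum-containing medium for 48 h, with 3 libraries per group. Lenti-NC is the vector control, lenti-TCF7L2 carries TCF7L2 for overexpression, and lenti-shTCF7L2 carries a hairpin against it. All cells were thus infected, the control included. TCF7L2 is a transcription factor of the TCF/LEF family, which acts with beta-catenin in Wnt signalling, and the study asks what it does in heart muscle cells. The promoter of the vector is not given in the sources used here, nor the species of the TCF7L2 insert, so that counts of rat Tcf7l2 may not measure all of it, nor whether the 3 libraries of a group came from separate cultures; if they did not, p-values measure technical spread alone.

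A ribosome holds 1 copy of nearly every ribosomal protein, so cells make these proteins in matched amounts. The genes are short and among the most highly expressed in any growing cell. Their messages usually start with a C followed by a run of pyrimidines, the 5′ terminal oligopyrimidine (TOP) tract, through which the mTOR pathway controls their translation.

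Total expected counts (fragments assigned to genes by estimation) were 15085922 to 16478295 per library. Tcf7l2 itself was at 40.0, 36.4 and 34.1 CPM (counts scaled to library size) with lenti-NC, at 142, 206 and 85.7 with lenti-TCF7L2, and at 25.6, 30.3 and 25.9 with lenti-shTCF7L2. The rise with lenti-TCF7L2 passed the test (log2 difference 1.97, SE 0.27, edgeR adjusted p = 8.46e-04). The difference with lenti-shTCF7L2 did not (-0.43, SE 0.27, edgeR adjusted p = 0.511), although its 3 libraries lay below all 3 controls. It did pass in a fit without lenti-TCF7L2 replicate 3 (-0.45, edgeR adjusted p = 0.0285). Lenti-TCF7L2 replicate 3 stood apart: its short genes read high and its long genes low. In that library the median of the other genes of up to 1000 bases was 0.45 log2 units above the lenti-NC mean, and the median of those over 8000 bases was 0.98 log2 units below it (a difference of -0.98). Lenti-TCF7L2 replicate 1 had the same trend to a lesser degree, with medians of 0.12 and -0.33. In replicate 2 they were -0.09 and -0.007. Fits without replicate 3 still held replicate 1. Of the members, 73 are up to 1000 bases long, and their median length is 565 bases against 2067 for all genes listed. The main counts and medians of the members are therefore given beside other genes of up to 1000 bases, and without lenti-TCF7L2 replicate 3 as well.

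Ribosomal protein messages made up a larger share of the libraries with lenti-TCF7L2. They took 3.58%, 3.74% and 3.92% of the expected counts in the lenti-NC group, 5.20%, 4.13% and 6.92% in the lenti-TCF7L2 group and 4.05%, 3.88% and 4.10% in the lenti-shTCF7L2 group. The means were 3.75% ± 0.166, 5.42% ± 1.41 and 4.01% ± 0.116 (SD, n = 3). All 3 lenti-TCF7L2 libraries lay above all 6 others, replicate 2 by little and replicate 3 by most. Per length, as FPKM (fragments divided by gene length and library size), the members took 11.2% ± 0.364, 15.0% ± 2.38 and 11.9% ± 0.233 of the summed values.

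Relative to the lenti-NC mean, the median member stood 0.41, 0.05 and 0.83 log2 units higher in lenti-TCF7L2 replicates 1, 2 and 3. The median of the 1020 other tested genes of up to 1000 bases stood at 0.12, -0.09 and 0.45 in the same libraries. The members thus exceeded genes of like length by 0.29, 0.14 and 0.38. This excess was -0.03, 0.00 and 0.03 in the lenti-NC libraries and 0.04, 0.01 and 0.05 in the lenti-shTCF7L2 libraries, so that all 3 lenti-TCF7L2 libraries lay above the other 6. Against the lenti-NC mean, 79 of 81 members were higher in replicate 1, 57 in replicate 2 and 81 in replicate 3. Rat Tcf7l2 ran in the reverse order, at 142, 206 and 85.7 CPM in replicates 1, 2 and 3. A link between the 2 was not tested.

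**Figure D1:**
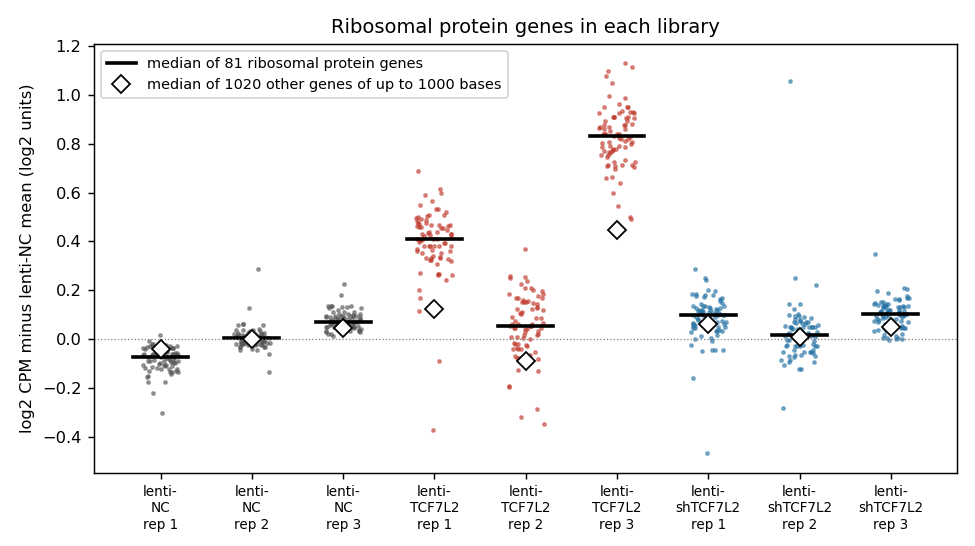
Log2 CPM of each of 81 ribosomal protein genes minus its mean over the lenti-NC libraries (y axis, log2 units) in the 9 libraries (x axis). Points are genes, bars are their medians and diamonds are the medians of 1020 other genes of up to 1000 bases; the bar lies 0.29, 0.14 and 0.38 above the diamond in lenti-TCF7L2 replicates 1, 2 and 3.

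Compared with lenti-NC, 32 of the 81 tested members rose with lenti-TCF7L2 and none fell, where 18.0% of all genes tested rose and 13.8% fell (edgeR quasi-likelihood test, adjusted p under 0.05 over all genes). All 81 fitted differences were above 0, from 0.05 to 0.67, with a median of 0.47 on the log2 scale. The median was 0.16 over the other genes of up to 1000 bases, of which 176 of 1020 rose and 67 fell, and 0.03 over all genes. In 34 members all 3 lenti-TCF7L2 libraries lay above all 3 controls, against 24.9% of all genes, and in 0 all lay below (22.0% of all genes). Without replicate 3 the count above was 34 (31.7% of all genes). Replicate 3 read highest of the 3 for every member, so leaving it out could not change this count. Of small subunit members 17 of 31 rose (median 0.49), of large subunit members 15 of 46 (median 0.47) and of the 4 tested paralogs 0 (median 0.15). The 8 tested members over 1000 bases had a median of 0.52, and 5 of them rose.

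The count of members that rose was larger in fits that took length into account. Scaled so that the other genes of up to 1000 bases matched between libraries, 52 members rose (background 9.52%) and their median difference was 0.31. With a smooth trend of the difference on gene length removed from each library, 69 rose (background 22.1%), again with a median of 0.31. Without lenti-TCF7L2 replicate 3, 38 rose (background 21.2%), with a median of 0.23. With both that library left out and the short genes matched, 55 rose (background 18.7%), with a median of 0.24. With it left out and the length trend removed, 70 rose (background 25.2%; median 0.28). The 32 genes called first were among those called in each of these 5 fits. Of the other genes of up to 1000 bases, 14.7% rose with the short genes matched and 20.2% with the length trend removed. Without replicate 3, 18.0% of them rose, and 17.7% with the short genes also matched.

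The count also varied with which libraries entered the fit. Without lenti-TCF7L2 replicate 2, whose members were closest to the controls, 78 rose (background 24.2%). Without replicate 1, 7 rose (background 13.2%). Without lenti-NC replicate 1, 2 or 3 in turn, 3, 3 and 9 rose (backgrounds 11.3%, 11.6% and 11.7%), and with the 6 libraries of these groups alone only Rps26 did (background 10.9%). Without lenti-shTCF7L2 replicate 1, 2 or 3 the counts were 15, 18 and 20 (backgrounds 14.0%, 14.2% and 14.9%). Of the other genes of up to 1000 bases, 35.7% rose without lenti-TCF7L2 replicate 2. In the other fits named here 9.33% to 13.8% of them rose. The direction held for the members' median in all of these fits.

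**Figure D2:**
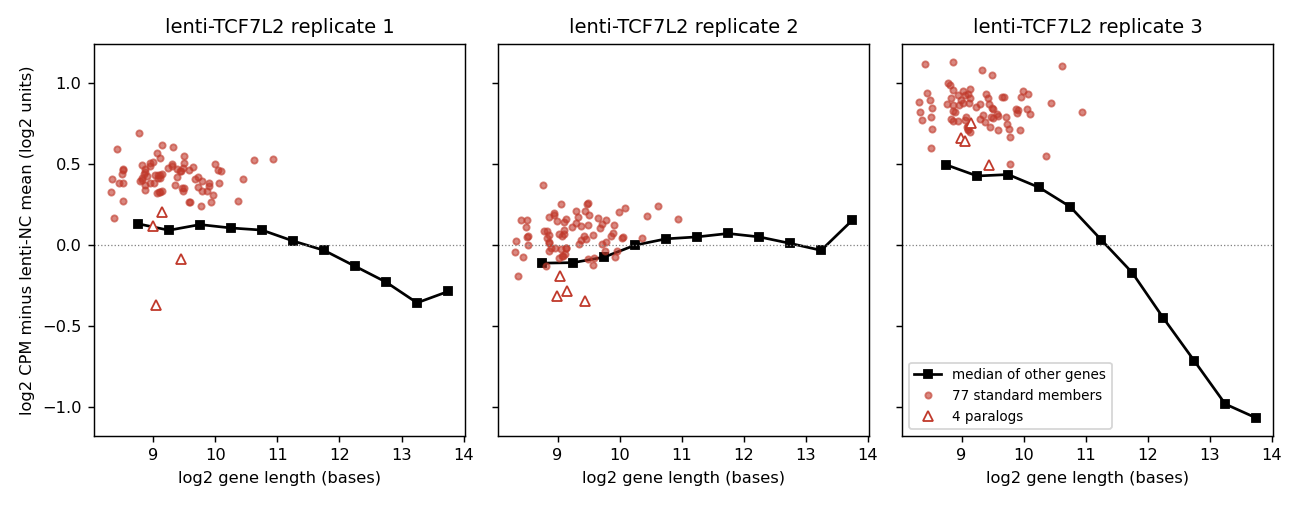
Log2 CPM minus the lenti-NC mean (y axis, log2 units) against log2 gene length in bases (x axis) in the 3 lenti-TCF7L2 libraries. Black squares are medians of other genes by length, red points the 77 standard members and open triangles 4 paralogs. The black line falls steeply with length in replicate 3 and less so in replicate 1. The members lie mostly above the line in each library.

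Cell type markers also differed between the groups. The summed CPM of the 11 listed cardiomyocyte markers was 58690 to 59769 with lenti-NC, 25764 to 33114 with lenti-TCF7L2 and 54879 to 56104 with lenti-shTCF7L2. The 10 endothelial markers summed to 86.9 to 109.6, 175 to 252 and 90.7 to 91.8, and the 7 tested macrophage markers to 40.7 to 42.0, 72.0 to 77.2 and 43.7 to 46.8. The 10 fibroblast markers summed to 34702 to 35837, 37636 to 45157 and 37649 to 39670, so cardiomyocyte markers were plentiful in every library and fibroblast messages were present beside them. The median fibroblast marker stood at 0.44, 0.36 and 0.34 log2 units against the lenti-NC mean in the lenti-TCF7L2 libraries but at -0.40, -0.51 and -0.45 in the lenti-shTCF7L2 libraries, where the sum of the list was higher than with lenti-NC. In lenti-TCF7L2 replicates 1, 2 and 3 the median cardiomyocyte marker stood at -1.02, -1.07 and -0.82. The median endothelial marker stood at 1.52, 2.19 and 1.91 in the same libraries. The part of these shifts in the members' rise was not tested. In such bulk samples, fewer cells of a type and less RNA per cell cannot be told apart.

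The 77 standard members differed widely in level. Per length, their mean FPKM with lenti-NC had a median of 741, and the middle 50% lay between 520.4 and 926. Rps2, a small subunit protein, was highest at 1948 ± 25.9 FPKM (SD, n = 3). Rplp0, the base of the ribosomal stalk, followed at 1662 ± 60.8 and Rpl41, the shortest large subunit protein, at 1383 ± 106. The lowest standard member was the large subunit gene Rpl37a at 109.9 ± 10.8 FPKM, a 17.7-fold range. Expected counts of Rps2 and Rpl37a were not whole numbers in any library, which marks reads shared with similar sequences, so their levels are uncertain. Such counts were found for 15 members in at least 1 library and for 8 in all 9.

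With lenti-TCF7L2 the same genes held the ends of the order, Rps2 at 2761 ± 710.1 and Rpl37a at 145 ± 23.8 FPKM, and the median was 1042. With lenti-shTCF7L2 the median was 773. The upper quartile was 1.78 times the lower with lenti-NC, 1.74 times with lenti-TCF7L2 and 1.76 times with lenti-shTCF7L2. The highest member was 17.7, 19.1 and 22.4 times the lowest in the same order.

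**Figure D3:**
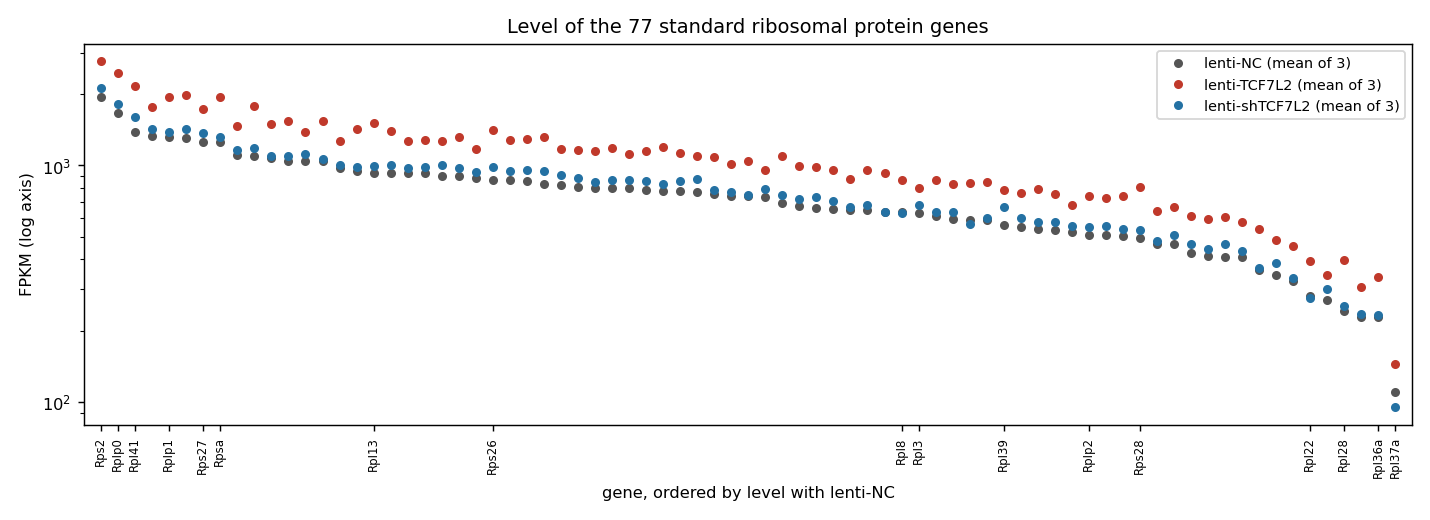
Mean FPKM over 3 libraries (y axis, log scale) of the 77 standard ribosomal protein genes (x axis, labelled for some genes the text names), ordered by the lenti-NC level, in the 3 groups. The order is largely shared, from Rps2 at 1948 to Rpl37a at 109.9 FPKM with lenti-NC, and the lenti-TCF7L2 points lie above the others.

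The stalk proteins recruit the translation factors that drive elongation. Rplp0, which anchors the stalk, was at 1767, 1807 and 1900.0 CPM with lenti-NC, at 2501, 2133 and 3188 with lenti-TCF7L2, and at 1982, 1884 and 2012 with lenti-shTCF7L2. Every lenti-TCF7L2 library lay above every control, and Rplp0 rose (log2 difference 0.51, SE 0.13, edgeR adjusted p = 0.0174). Its acidic partner Rplp1 was at 621, 665 and 692 CPM with lenti-NC and at 887, 688 and 1271 with lenti-TCF7L2, which overlap through replicate 2 (0.53, SE 0.19, edgeR adjusted p = 0.0583). Rplp2, the other acidic partner, was at 198, 222 and 241 CPM against 292, 226 and 412 (0.49, SE 0.19, edgeR adjusted p = 0.0753). Neither Rplp1 nor Rplp2 passed the test. Without replicate 3 the log2 difference was 0.33 for Rplp0 (edgeR adjusted p = 0.00212), 0.24 for Rplp1, which then passed (edgeR adjusted p = 0.0476), and 0.22 for Rplp2 (edgeR adjusted p = 0.112).

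Rpsa, a small subunit protein also known as the laminin receptor, was at 1259, 1286 and 1302 CPM with lenti-NC and at 1810.2, 1472 and 2478 with lenti-TCF7L2. The groups did not overlap, and Rpsa rose (log2 difference 0.58, SE 0.16, edgeR adjusted p = 0.0237). With lenti-shTCF7L2 it was at 1319, 1258 and 1373 CPM, which overlaps the controls. Rps2, the most abundant member per length, was at 1828, 1851 and 1881 CPM against 2417, 1949 and 3252 with lenti-TCF7L2 (0.45, SE 0.16, edgeR adjusted p = 0.0548). All 3 of its lenti-TCF7L2 values lay above the controls, though it narrowly missed the threshold. Without replicate 3 the log2 difference was 0.34 for Rpsa (edgeR adjusted p = 0.00318) and 0.22 for Rps2, which then passed (edgeR adjusted p = 0.0376).

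Members of both subunits were among those with the greatest differences. Rps28, of the small subunit, was at 137, 154 and 175 CPM with lenti-NC and at 233, 171 and 335 with lenti-TCF7L2. It was called higher (log2 difference 0.67, SE 0.21, edgeR adjusted p = 0.0382), but replicate 2 lay below the highest control. The large subunit gene Rpl28 was at 383, 379 and 403 CPM against 557, 457 and 832 (0.66, SE 0.18, edgeR adjusted p = 0.0231). Rpl13 was at 635, 667 and 688 CPM against 970.4, 792 and 1372 (0.66, SE 0.17, edgeR adjusted p = 0.0176). For these 2 large subunit genes, no lenti-TCF7L2 library reached down to the controls. Without replicate 3 the log2 differences of Rps28, Rpl28 and Rpl13 were 0.36, 0.37 and 0.39 (edgeR adjusted p = 0.0213, 0.0014 and 0.00114). Expected counts of Rpl28 were never whole, so its level is uncertain.

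Rps26, which lines the channel where the message leaves the small subunit, is described because of its values and was picked after they were seen. It was at 353, 355 and 372 CPM with lenti-NC, at 580.3, 464 and 656 with lenti-TCF7L2, and at 409, 386 and 399 with lenti-shTCF7L2. Its 3 groups did not overlap. It had the smallest adjusted p of the members against lenti-NC (log2 difference 0.66, SE 0.11, edgeR adjusted p = 0.0028). It was the 1 member called higher in every fit tried, apart from the fits scaled on the ribosomal protein genes themselves. In such a fit without lenti-TCF7L2 replicate 3, Rps26 rose beyond the other members (0.29, SE 0.09, edgeR adjusted p = 0.0232; 5.73% of all genes were higher there). With replicate 3 it was not called there. Its expected counts were not whole in 7 of 9 libraries.

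**Figure D4:**
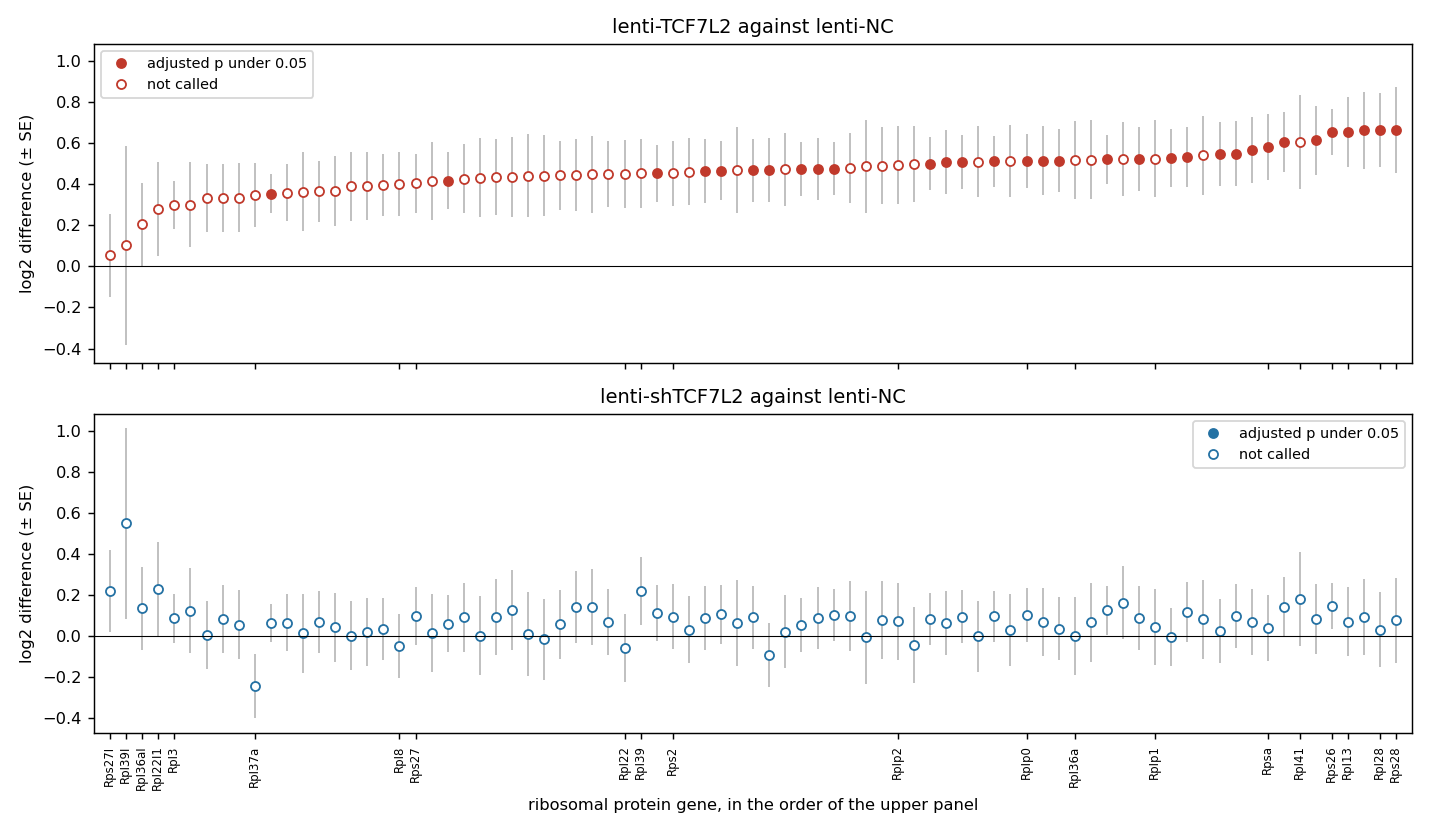
Log2 difference ± SE (y axis) of each tested member (x axis, labelled for some genes the text names) with lenti-TCF7L2 against lenti-NC (upper panel) and with lenti-shTCF7L2 against lenti-NC (lower panel), in the order of the upper panel. Filled points passed the test (32 above, 0 below); the paralogs Rps27l, Rpl39l, Rpl36al and Rpl22l1 take the 4 lowest places in the upper panel.

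The 4 smallest differences with lenti-TCF7L2 were those of the 4 tested paralogs. Paralogs are second genes for a ribosomal protein that can take its place in the ribosome. Rps27l, a paralog of Rps27 known as a target of p53, was at 38.3, 37.1 and 47.7 CPM with lenti-NC, at 38.3, 32.0 and 57.4 with lenti-TCF7L2, and at 46.3, 45.0 and 51.9 with lenti-shTCF7L2. The groups overlapped, and the difference with lenti-TCF7L2 was 0.05 (log2, SE 0.20, edgeR adjusted p = 0.856). Rps27 itself was at 408, 436 and 451 CPM with lenti-NC and at 561, 447 and 706 with lenti-TCF7L2 (0.40, SE 0.14, edgeR adjusted p = 0.0581), which did not pass either. Rps27l is 698 bases long and Rps27 366.

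Set against its partner, Rps27l was lower with lenti-TCF7L2 in every library. Its FPKM was 4.67%, 4.23% and 5.28% of that of Rps27 in the lenti-NC libraries, 3.40%, 3.56% and 4.05% in the lenti-TCF7L2 libraries and 4.80%, 5.10% and 5.54% in the lenti-shTCF7L2 libraries. The lenti-TCF7L2 values lay below all others. The difference from the other members was tested by scaling the libraries on the 77 standard members. On that scale Rps27l fell with lenti-TCF7L2 by 0.42 (SE 0.12, edgeR adjusted p = 0.0358), and by 0.46 without replicate 3 (edgeR adjusted p = 0.0126). Of the 81 members, Rps27l was the 1 called lower on this scale with all libraries (background 19.2%).

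Rpl36al encodes a protein nearly identical to that of Rpl36a, and both genes had expected counts that were not whole in 8 of 9 libraries. How reads were split between the pair is therefore uncertain. Rpl36al was at 102, 111 and 117 CPM with lenti-NC and at 119, 87.9 and 174 with lenti-TCF7L2, against 134, 156 and 159.8 and then 207, 153 and 285 for Rpl36a. As a percentage of the FPKM of Rpl36a, Rpl36al was at 102, 95.8 and 98.4 with lenti-NC, at 77.3, 77.4 and 81.8 with lenti-TCF7L2, and at 109.1, 111 and 105 with lenti-shTCF7L2. The 3 groups did not overlap. Scaled on the 77 standard members, Rpl36al differed from lenti-NC by -0.28 (edgeR adjusted p = 0.0662). Without replicate 3 it fell by 0.34 (edgeR adjusted p = 0.0185), which left Rps27l and Rpl36al as the 2 members called lower (background 26.2%).

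Rpl22l1 is the paralog of Rpl22, a large subunit protein that is known to repress it. It was at 12.7, 16.2 and 15.8 CPM with lenti-NC, at 17.1, 12.1 and 25.1 with lenti-TCF7L2, and at 17.7, 17.7 and 17.1 with lenti-shTCF7L2. Relative to Rpl22 the FPKM came to 9.16%, 10.2% and 9.76%, then 8.62%, 7.58% and 9.23%, then 11.9%, 12.6% and 11.2% in the 3 groups. The lenti-shTCF7L2 values lay above all others and those of the other two groups overlapped. Rpl22l1 did not pass against lenti-NC with lenti-TCF7L2 (log2 difference 0.28, SE 0.23, edgeR adjusted p = 0.372) or with lenti-shTCF7L2 (0.23, SE 0.23, edgeR adjusted p = 0.747). Rpl22 was at 112, 129 and 131 CPM with lenti-NC and at 160.2, 129 and 219.9 with lenti-TCF7L2 (0.45, SE 0.17, edgeR adjusted p = 0.068).

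The other two paralogs were scarcely expressed. Rpl39l, the testis-enriched copy of Rpl39, had 6, 10 and 8 expected counts in the control libraries, 6, 7 and 15 in those with lenti-TCF7L2 and 9, 19 and 8 in those with lenti-shTCF7L2. Rpl39 was at 559 ± 22.9 FPKM with lenti-NC and Rpl39l at 1.05 ± 0.265. Rpl3l, the copy of Rpl3 known from adult heart and skeletal muscle, was listed in 2 libraries only, with 1 expected count in lenti-TCF7L2 replicate 2 and 2 in lenti-shTCF7L2 replicate 2. That is below the 3 counts that a count of 0 allows per library. Its partner Rpl3, which reaches the peptidyl transferase centre, was at 628 ± 29.4 FPKM with lenti-NC and 800.0 ± 138 with lenti-TCF7L2. On the CPM scale Rpl3 did not pass (log2 difference 0.30, SE 0.12, edgeR adjusted p = 0.0831).

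**Figure D5:**
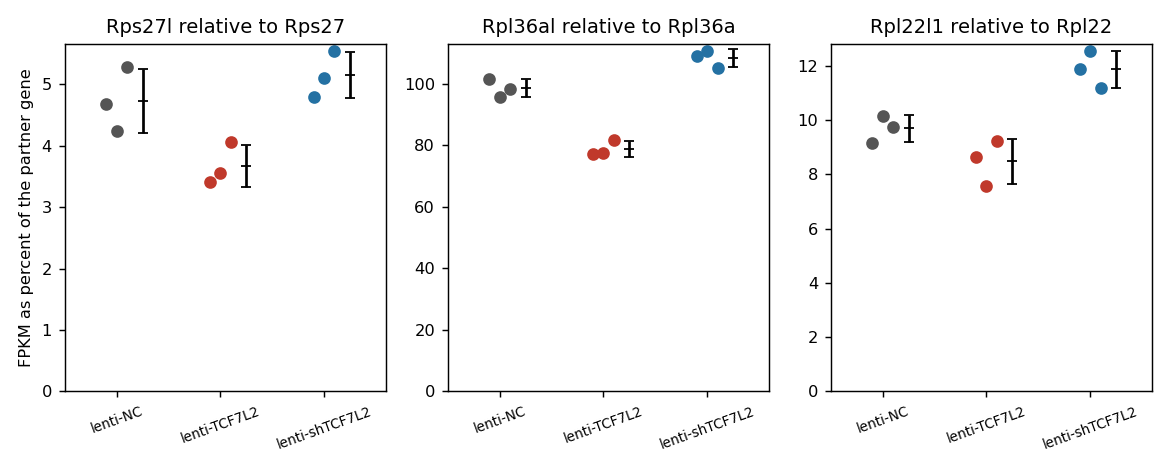
FPKM of 3 paralogs as a percentage of the FPKM of their partner gene (y axis, from 0) in the 3 groups (x axis); points are libraries and bars are the mean ± SD (n = 3). For Rps27l the lenti-TCF7L2 values, 3.40% to 4.05%, lie below those of both other groups, and for Rpl36al, 77.3% to 81.8%, they do too.

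Of the 81 tested members, 11 were called neither in the first fit nor in any of the 5 fits that addressed length or replicate 3. They were the 4 paralogs and the standard members Rpl10, Rpl3, Rpl38, Rpl7, Rps27a, Rps4x and Rps9. The other 70 rose in at least 1 of these 6 fits, as did 26.7% of all genes tested.

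With the hairpin, no difference in the members passed the test. Compared with lenti-NC, 0 of 81 were called in either direction with lenti-shTCF7L2 (edgeR), where 1.32% of all genes rose and 2.32% fell. None had an unadjusted p under 0.05 in edgeR, and DESeq2 called 0 as well (backgrounds 1.79% higher and 3.57% lower). The median difference was 0.07 on the log2 scale over the members, 0.04 over other genes of up to 1000 bases and 0.01 over all genes. In 14 members the 3 lenti-shTCF7L2 libraries lay above the 3 controls (19.9% of all genes did). In 0 members they lay below (21.0% of all genes). The fit on these 6 libraries alone called 9 members higher (background 13.0%), by 0.13 to 0.22 log2 units: Rpl10a, Rpl35, Rpl36al, Rpl39, Rpl41, Rps13, Rps20, Rps26 and Rps27l.

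Rpl37a had the lowest difference with lenti-shTCF7L2, at 27.0, 30.7 and 37.3 CPM against 33.1, 38.9 and 40.6 with lenti-NC (log2 difference -0.25, SE 0.16, edgeR adjusted p = 0.53). Rpl22 (-0.06) and Rpl8 (-0.05) were also among the lowest, and neither passed. Among the highest, Rpl39 was at 203, 194 and 184 CPM against 159, 167 and 173, which do not overlap (0.22, SE 0.17, edgeR adjusted p = 0.632). Rpl39l (0.55), Rpl22l1 (0.23) and Rps27l (0.22) made up the other high values, on few counts for Rpl39l. With the hairpin, 3 of the 4 tested paralogs were thus among the 4 highest members; the fourth, Rpl36al, was at 0.13. Both comparisons with lenti-NC share those control libraries.

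Set directly against lenti-shTCF7L2, 22 of 81 members were higher with lenti-TCF7L2 and 0 lower, where 18.4% of all genes were higher and 14.7% lower (edgeR). In 31 members the 2 groups did not overlap and lenti-TCF7L2 was higher (24.1% of all genes), and in 0 it was lower (23.2%). Without replicate 3 it was higher in 31 (31.0%), a count that leaving out this highest library could not change. The median was 0.41 for the members, 0.11 for the other genes of up to 1000 bases and 0.00 for all genes. With the short genes matched, 41 members were higher, and with the length trend removed 71 were (backgrounds 12.2% and 22.9%). Of the other genes of up to 1000 bases, 15.5% and 20.7% were higher in these fits. Without lenti-TCF7L2 replicate 3, 31 were higher (background 23.3%) and 1, Rps27l, was lower (background 22.3%; log2 difference -0.44, edgeR adjusted p = 0.00611). Without lenti-TCF7L2 replicate 2, 76 were higher (background 23.1%, and 30.6% of the other genes of up to 1000 bases). Without lenti-shTCF7L2 replicate 1, 2 or 3 the counts were 1, 1 and 2 (backgrounds 12.8%, 12.3% and 13.0%). Without lenti-NC replicate 1, 2 or 3 they were 7, 7 and 6 (backgrounds 16.1%, 16.0% and 15.8%), and without lenti-TCF7L2 replicate 1 the count was 3 (background 14.3%).

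The greatest differences from the hairpin were those of Rpl28 (0.63, SE 0.18, edgeR adjusted p = 0.0264), Rpl37a (0.59, SE 0.16, edgeR adjusted p = 0.0177), Rps28 and Rpl13 (both 0.59). Rps28 did not pass (edgeR adjusted p = 0.0568). Scaled on the 77 standard members, Rps27l was lower by 0.58 and Rpl36al by 0.35 (a log2 difference of -0.58 and -0.35, edgeR adjusted p = 0.0112 and 0.0334; background 17.5%). Without replicate 3, Rpl22l1 (-0.46, edgeR adjusted p = 0.0167) and Rpl38 (-0.33, edgeR adjusted p = 0.023) were also lower than the other members (4 called, background 25.2%).

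Of 2 genes for ribosomal proteins outside the naming rule, Rack1 rose with lenti-TCF7L2 and Fau did not pass. Rack1, a scaffold on the small subunit, was at 959, 1011 and 1013 CPM with lenti-NC and at 1286, 1096 and 1684 with lenti-TCF7L2 (log2 difference 0.45, SE 0.14, edgeR adjusted p = 0.0357). Fau, which encodes the small subunit protein S30 behind a ubiquitin-like part, was at 248, 264 and 289.9 CPM against 375, 284 and 583 and missed the threshold (0.63, SE 0.22, edgeR adjusted p = 0.054). Without replicate 3 both passed, Rack1 at 0.24 (edgeR adjusted p = 0.0128) and Fau at 0.28 (edgeR adjusted p = 0.0366). Relative to the 77 standard members, Rack1 was not called (-0.01).

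Genes that serve the making and use of ribosomes gave a mixed picture with lenti-TCF7L2. Of other messages known to carry a TOP tract, 6 of 22 tested rose and 2 fell (median 0.30), against 18.0% and 13.8% of all genes. Without replicate 3, 6 rose and 2 fell (median 0.12), against 21.2% and 21.5% of all genes. With the length trend removed 11 rose and 2 fell (median 0.18), against 22.1% and 17.4%. Gas5, a noncoding host gene of small nucleolar RNAs, rose from 22.3, 22.2 and 28.3 to 40.6, 35.3 and 56.0 CPM (0.86, SE 0.17, edgeR adjusted p = 0.00543). Impdh2, an enzyme of guanine nucleotide synthesis, rose by 0.55 (SE 0.10, edgeR adjusted p = 0.00356). With lenti-shTCF7L2 none of the 22 was called in the fit of all 9 libraries.

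Of 38 tested ribosome biogenesis and RNA polymerase I genes, 16 rose with lenti-TCF7L2 and 1 fell (median 0.31), against 18.0% and 13.8% of all genes. Without replicate 3, 15 rose and 2 fell (median 0.17), against 21.2% and 21.5% of all genes. With the length trend removed 19 rose and 2 fell (median 0.26), against 22.1% and 17.4%. Bop1, needed to process the large subunit's RNA, was at 39.7, 35.1 and 37.3 CPM with lenti-NC and at 52.9, 48.7 and 55.3 with lenti-TCF7L2 (0.49, SE 0.08, edgeR adjusted p = 0.00223). Its groups did not overlap, and the lenti-shTCF7L2 values of 46.1, 46.5 and 48.4 CPM also lay above the controls without passing (0.33, edgeR adjusted p = 0.0625). Dkc1, the pseudouridine synthase of nucleolar particles, rose by 0.62 (SE 0.11, edgeR adjusted p = 0.00291). Mrto4, a factor that holds the place of Rplp0 in the nascent large subunit, rose by 0.45 (SE 0.10, edgeR adjusted p = 0.0116), and with lenti-shTCF7L2 differed by 0.41 (edgeR adjusted p = 0.074).

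Among 36 tested genes of translation initiation, release and its regulators, 4 rose and 4 fell with lenti-TCF7L2 (median 0.12). Of all genes, 18.0% rose and 13.8% fell. Without replicate 3, 6 rose and 6 fell (median -0.02), against 21.2% and 21.5% of all genes. With the length trend removed 7 rose and 5 fell (median 0.06), against 22.1% and 17.4%. Rps6kb2, a kinase of the ribosomal protein S6, rose by 0.72 (SE 0.12, edgeR adjusted p = 0.00251). Eif1ax, a factor of start codon scanning, fell by 0.29 (SE 0.07, edgeR adjusted p = 0.0117). The 73 mitochondrial ribosomal protein genes, which build the separate ribosome of the mitochondrion, had a median of -0.01. Of these 73, 3 rose and 3 fell, against 18.0% and 13.8% of all genes. Without replicate 3, 2 rose and 30 fell (median -0.21; 21.5% of all genes fell), and with the length trend removed 4 rose and 19 fell (median -0.15; 17.4% of all genes fell). Among them Mrps2 fell by 0.40 (SE 0.07, edgeR adjusted p = 0.00213) and Mrps26 rose by 0.56 (SE 0.11, edgeR adjusted p = 0.00616). None of the genes in these lists was called with lenti-shTCF7L2 in the fit of all 9 libraries. Without lenti-TCF7L2 replicate 3, some of the genes picked from these lists by adjusted p were called with it (edgeR). Bop1 (0.31), Mrto4 (0.40), Eif3l (0.18), Eif4g2 (0.32) and Eef1e1 (0.43) were higher, and Mrpl43 (-0.25) and Mrps2 (-0.18) lower. The rest of those picked were not called. In that fit 770 of 11820 genes were higher and 1286 lower.

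Per library, the mitochondrial ribosomal proteins stood at -0.10, -0.31 and 0.33 log2 units against the lenti-NC mean in lenti-TCF7L2 replicates 1, 2 and 3. Their median length is 1022 bases, against 565 for the cytosolic members, so the 2 lists are not matched in length. In each of these libraries the cytosolic members stood higher, at 0.41, 0.05 and 0.83. The ribosome biogenesis list was above 0 in all 3, at 0.26, 0.15 and 0.57, and in the lenti-shTCF7L2 libraries too, at 0.14, 0.18 and 0.19.

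Start sites of the members were compared because messages of such genes usually carry the TOP tract. RefSeq windows of the build GRCr8, which is not that of the deposited files, were matched by gene identifier for 64 of the 82 members. Each held 250 bases before and 50 after the gene start. The first window was used for the 1 member with more than 1. A tract was taken as a C followed by at least 4 further C or T on the gene's strand, beginning no more than 10 bases from the annotated start. It was present for 46 of 64 members (71.9%), against 28.5% of 9572 tested genes with a window, 30.0% of other short genes and 37.3% of mitochondrial ribosomal proteins. A tract exactly at the start was present for 34.4% of members and 2.70% of tested genes.

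Shown are the windows of the stalk genes and Rpsa, of 5 other members described above and of the 5 pairs of a gene and its paralog, with and without a tract, each with 10 bases before and 20 from the annotated start onward. Capitals mark the tract.
Rplp0: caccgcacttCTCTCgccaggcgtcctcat
Rplp1: cgcatgtgatCCTTTCCTCagctgccgcca
Rplp2: cgccgccggacgccgccgaggtcgcacgcg
Rpsa: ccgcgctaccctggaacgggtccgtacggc
Rps26: ccgccgggtcCTCTTTCgagtcttggctcc
Rps28: ccctgctcacgtgaCTCCTCTCCgctagat
Rpl28: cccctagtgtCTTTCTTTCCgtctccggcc
Rpl13: cggtgcccgatCCTTTCCgctcggccgttc
Rps2: tCTTTTTCTTCgggaaaacacgtgagtctg
Rps27: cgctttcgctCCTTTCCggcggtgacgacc
Rps27l: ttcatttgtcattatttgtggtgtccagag
Rpl22: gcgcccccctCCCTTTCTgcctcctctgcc
Rpl22l1: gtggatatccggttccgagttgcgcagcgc
Rpl39: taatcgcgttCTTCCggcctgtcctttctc
Rpl39l: caggccgtcccgctatcctggtgtgtggtc
Rpl36a: tataaaCTTCCgttgctgctctagcctctc
Rpl36al: cttccgctccatccgtCCCTTTCCTgttcg
Rpl3: gcctgctcgatctctatcggcggcgtgtgg
Rpl3l: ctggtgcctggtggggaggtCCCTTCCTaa
The windows of the stalk genes and Rpsa lie at chr12:46718371-46718400 (Rplp0, minus strand), chr8:71290853-71290882 (Rplp1, minus), chr1:205975911-205975940 (Rplp2, plus) and chr8:128728869-128728898 (Rpsa, plus). Those of the next 5 lie at chr7:1643385-1643414 (Rps26, minus), chr7:15311314-15311343 (Rps28, minus), chr1:78083513-78083542 (Rpl28, minus), chr19:68062504-68062533 (Rpl13, plus) and chr10:14251838-14251867 (Rps2, plus). The pairs lie at chr2:177964587-177964616 (Rps27, minus), chr8:76443648-76443677 (Rps27l, plus), chr5:168117951-168117980 (Rpl22, plus), chr2:113683186-113683215 (Rpl22l1, plus), chrX:121195877-121195906 (Rpl39, minus), chr10:5966602-5966631 (Rpl39l, minus), chrX:102059439-102059468 (Rpl36a, plus), chr6:93392239-93392268 (Rpl36al, minus), chr7:113507971-113508000 (Rpl3, minus) and chr10:14258436-14258465 (Rpl3l, plus).

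The pairs did not follow 1 pattern. Rps27, Rpl22 and Rpl39 held a tract at the start and their paralogs held none within 10 bases. Rpl36a and Rpl36al each held one away from the start, while Rpl3 held none and Rpl3l held one 10 bases after the start. Rplp2 and Rpsa held none either. Among standard members, the 44 with a tract had a median difference of 0.49 with lenti-TCF7L2 and the 15 without had 0.46, with ranges of 0.30 to 0.67 and 0.30 to 0.61. The ranges overlapped for nearly their whole width.

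The core motif of TCF/LEF factors was searched as CTTTGA and CTTTGT on both strands of the windows of 300 bases. CTTTGA was found for 14.1% of members and 11.6% of tested genes, and CTTTGT for 6.25% and 13.1%. At least 1 was found for 18.8% of members and 22.8% of tested genes. Of the genes shown above, Rps27l and Rpl3l held CTTTGA, while Rps2 and Rpl39 held CTTTGT. A match is a description of the letters and shows no binding.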

How the data were processed

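Messenger RNA of 9 samples was selected with oligo(dT), made into libraries with a NEBNext Ultra kit and read on the BGISEQ-500 platform, per the labels' protocols. The deposited tables, 1 per library, hold expected counts (estimated fragments per gene), FPKM and gene length, per the file headers. HISAT2, Bowtie2, RSEM 1.3.1, DESeq2 1.4.5 and the build rn6 are named without roles or order, per the submitters' processing notes. Whether strand was used in counting is not given in the sources used here. Of the values, 84.2% to 84.5% per library were whole numbers as printed.

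Expected counts were rounded, filtered with filterByExpr (11761 of 14607 genes kept), scaled with TMM and tested with edgeR 4.0.16 in R 4.3.3 (quasi-likelihood, 2-sided, group as the only term, all 9 libraries). P-values were adjusted by Benjamini and Hochberg over all genes tested, with calls under 0.05. CPM use TMM-scaled sizes. Per-library log2 CPM used a prior count of 2. Standard errors were computed from each difference and its F statistic. Groups were taken from sample titles. The comparisons were each virus against lenti-NC and against the other.

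Alternatives were RLE scaling, no filter, DESeq2 1.42.0, limma 3.58.1 on log2(FPKM + 1) or log2(FPKM + 0.1) for genes with a mean FPKM of at least 1 or unfiltered, a replicate block, only the 6 libraries compared, scaling on other genes of up to 1000 bases, a lowess length trend (span 0.3) fitted without members, and each library left out. Scaling on the 77 standard members and the length trend without lenti-TCF7L2 replicate 3 were chosen after seeing the data. The members, lists and alternatives were chosen with earlier results of these data known. Genes named were the stalk genes, Rpsa, paralog pairs, the 4 highest and 4 lowest differences per comparison, the 3 highest and 3 lowest FPKM, Fau, Rack1 and up to 2 per list with the smallest adjusted p in either comparison with lenti-NC; others are marked in the text, and a few that this rule names are not reported here. Erythroid markers (2 of 8 tested) and smooth muscle markers (8 tested) gave 0 and 2 calls higher with lenti-TCF7L2. The fits were tested on simulated counts. Gene start windows came from RefSeq, build GRCr8.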

Additional observations from a re-analysis of the deposited data

How the results depend on the processing

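Counts of members called varied with the libraries that entered the fit and with the treatment of gene length. Depth was even and high for all members but Rpl39l and Rpl3l. Counts of members higher with lenti-TCF7L2 than with lenti-NC were 32, and 29 with RLE scaling, 29 without a filter, 40 with DESeq2, 34, 34 and 26 with limma on FPKM. The shares over all genes were 18.0%, 16.8%, 13.4%, 13.5%, 22.4%, 22.1% and 17.1% in the same order. The DESeq2 share of 13.5% is over 14574 genes, including any without an adjusted p. The DESeq2 shares given for lenti-shTCF7L2 are over the 12031 genes with one, so they have another base. Those for the next settings are given with their counts above. They were 1 with only the 6 libraries compared, 52 with scaling on other genes of up to 1000 bases, 55 with that scaling and without lenti-TCF7L2 replicate 3, 69 with the length trend removed and 70 with that and without replicate 3. Leaving out 1 library gave 3 to 78. Against lenti-shTCF7L2 the count of 22 became 6 with limma on unfiltered log2(FPKM + 1) and 2 with only the 6 libraries compared. The shares over all genes were 18.4%, 15.3% and 13.3% in that order. It became 41 and 45 with short-gene scaling (all libraries, then without replicate 3), where 12.2% and 21.6% of all genes were higher. With the length trend likewise it was 71 (22.9% of all genes) and 70, and with 1 library left out 1 to 76. The count lower there was 1 (Rps27l) with short-gene scaling or the length trend without replicate 3, and 0 to 1 with 1 library left out. With lenti-shTCF7L2 against lenti-NC, 9 were higher with only the 6 libraries compared, and 1 (Rpl39) higher and 1 (Rpl37a) lower with the length trend and without replicate 3; every other setting gave 0. The cause of these shifts was not tested. Fits that left libraries out also rested on fewer of them.

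Scaling on the 77 standard members sets the group itself to about 0. The median difference became -0.002 against lenti-NC and 0.009 against lenti-shTCF7L2, and -0.002 and -0.023 without replicate 3. Counts higher were then 0 and 0, and 1 (Rps26) and 0 without replicate 3; counts lower were 1 and 2, and 2 and 4 without it. On that scale the sign turned for Rps27l (-0.42; -0.46 without replicate 3) and Rack1 (-0.0128) against lenti-NC, and for Rpl36al against lenti-NC without replicate 3 (-0.34). Against lenti-shTCF7L2 it turned for Rpl36al (-0.35; -0.43 without replicate 3), Rpl22l1 (-0.46 without replicate 3) and Mrpl43 (-0.0752). Of 2343 single-gene values under alternatives, 2015 kept direction and side of the threshold, 154 lost their call, 166 gained one and 8 turned sign on the scale just described. Another 109 values changed sign without being called in either fit.

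Over all genes, samples with the same replicate number deviated together little: over 9 pairs the correlation of deviations was -0.067 to 0.151. It was above 0.1 for 2 pairs, both with lenti-TCF7L2 replicate 3. The median member was highest in replicate 3 of each group, at 0.07, 0.83 and 0.10 log2 units for lenti-NC, lenti-TCF7L2 and lenti-shTCF7L2. With the replicate block, 36 members were higher with lenti-TCF7L2 than with lenti-NC (16.0% of all genes) and 24 than with lenti-shTCF7L2 (16.8%). Between lenti-shTCF7L2 and lenti-NC, 0 differed.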
